A study of Mus musculus with 3 samples.

Results

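The barcodes described here carried RNA of genes that mark the hormone-producing cells of the anterior pituitary, in single-cell libraries made from palatal shelves of the mouse embryo. They were chosen by a rule on measured counts: a cell barcode with at least 500 detected genes was selected when it held a UMI (a unique molecular identifier, so 1 captured RNA molecule) of at least 2 of 7 genes, namely Pomc, Cga, Pou1f1, Six6, Tshb, Chga and Lhx3. The rule selected 133 of 8107 barcodes with 500 genes or more, out of 9428 barcodes in all. The levels of these 7 genes are therefore a description of the choice and not a result. The palatal shelves are the outgrowths of the upper jaw that form the roof of the mouth. Each library came from wild-type C57BL/6J embryos at 1 stage, embryonic day E13.5, E14.5 or E15.5, with tissue of 3 embryos pooled, digested with TrypLE and fixed in methanol before 10x Genomics droplet capture. With 1 library per stage there is no replicate, so no test was run, and every interval covers counting error of these libraries only.

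The anterior pituitary forms from Rathke's pouch, an upgrowth of the oral ectoderm that lies above the developing palate and contacts the floor of the brain. The homeobox factors Pitx1, Lhx3, Six6 and Hesx1 mark the pouch, and its cells then follow separate hormone lineages. Corticotropes and melanotropes make Pomc, the precursor of ACTH and MSH. Thyrotropes and gonadotropes make Cga, the alpha subunit that pairs with a hormone-specific beta subunit such as Tshb. Pou1f1 (Pit1) drives the somatotrope, lactotrope and later thyrotrope lineages, while an early, transient population at the rostral tip of the pouch makes Tshb without it. Chga is a granule protein of endocrine cells and of many neurons, and Pomc and Six6 are also transcribed in the hypothalamus, so that neither is specific to the pituitary.

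The promoters of the 3 hormone genes and of Pou1f1 are shown because the classes of selected barcodes used below were formed from these 4 genes. Each line gives the 250 bases before the annotated start site, 5′ to 3′ on the gene's strand, from RefSeq (GRCm38.p6, the mm10 assembly). Capitals mark any match, on either strand, to 1 of 3 motifs: ATGNATA, a form of the Pou1f1 site, AGATAA, the GATA site, and TATAAA, the TATA box. These motifs were picked after the promoters had been searched.
Pomc: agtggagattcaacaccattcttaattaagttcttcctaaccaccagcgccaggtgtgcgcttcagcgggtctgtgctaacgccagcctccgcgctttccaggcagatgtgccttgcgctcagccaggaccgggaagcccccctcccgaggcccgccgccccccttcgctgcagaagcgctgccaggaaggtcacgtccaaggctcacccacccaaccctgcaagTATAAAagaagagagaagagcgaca
Cga: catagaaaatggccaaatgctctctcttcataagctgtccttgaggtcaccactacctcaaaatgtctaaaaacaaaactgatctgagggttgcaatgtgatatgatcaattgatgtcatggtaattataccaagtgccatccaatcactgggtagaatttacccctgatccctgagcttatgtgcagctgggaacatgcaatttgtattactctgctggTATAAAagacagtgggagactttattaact
Tshb: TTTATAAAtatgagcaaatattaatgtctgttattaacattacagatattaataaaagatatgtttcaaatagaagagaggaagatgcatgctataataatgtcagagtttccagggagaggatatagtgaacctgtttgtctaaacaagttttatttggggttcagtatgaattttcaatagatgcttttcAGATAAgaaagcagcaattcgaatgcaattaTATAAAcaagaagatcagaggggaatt
Pou1f1: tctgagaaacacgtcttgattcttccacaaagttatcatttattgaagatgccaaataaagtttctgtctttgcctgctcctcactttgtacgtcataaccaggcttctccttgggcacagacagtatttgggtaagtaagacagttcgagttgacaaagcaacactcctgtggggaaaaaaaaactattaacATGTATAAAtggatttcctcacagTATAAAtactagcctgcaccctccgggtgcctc
The Pomc window lies at chr12:3954695-3954944 on the plus strand, the Cga window at chr4:34893529-34893778 on the plus strand, and the Tshb window at chr3:102782715-102782964 on the minus strand. The Pou1f1 window, the first of 2 in the table for this gene, lies at chr16:65520262-65520511 on the plus strand. TATAAA began 25 bases before the start of Pomc, 30 before that of Cga, 27 and 248 before that of Tshb, and 33 before that of Pou1f1. The reverse-strand form at 250 in Tshb overlaps the match at 248. Pou1f1 held ATGTATA 57 bases before its start, overlapping another TATAAA at 54, and Tshb held AGATAA at 58. Of 32851 promoter windows of this length, 12.4% held TATAAA, 9.99% AGATAA and 7.92% ATGNATA. A match describes the letters only.

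In order of stage, the libraries held 4236, 2079 and 3113 barcodes and 11472663, 5293977 and 8313677 UMIs. The selected barcodes were deeper than the others, with medians of 6359, 3851 and 5484 UMIs against 1964, 1880 and 1970. Above 20000 UMIs there were 13, 7 and 3 selected barcodes. These few held 59.6%, 69.3% and 37.6% of all UMIs of the selected barcodes. Among the other barcodes only 0.442%, 0.287% and 0.383% were that deep. Every one of these deep selected barcodes carried at least 3 of 10 mesenchyme markers, and 13, 7 and 2 of them carried at least 3 of 12 neuronal markers, and the part of mixed cells in this was not tested. Doublets were not called, and values are given with and without the deep barcodes. Libraries shared 3 barcodes between E13.5 and E14.5, 1 between E13.5 and E15.5 and 1 between E14.5 and E15.5, and 0 of them was selected.

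Whether the label of anterior pituitary endocrine cells held could not be told for most of the selected barcodes at E13.5, since neuronal markers were widespread in that library. Of the 71 selected barcodes at E13.5, 59 carried at least 3 neuronal markers (83.1%, exact 95% interval 72.3 to 91.0), against 61.0% of the other barcodes of that library. At E14.5 it was 11 of 33 (33.3%, 17.96 to 51.8) against 10.6%, and at E15.5 10 of 29 (34.5%, 17.9 to 54.3) against 9.12%. After thinning to 1500 UMIs it was 67.2% (54.3 to 78.4), 18.5% (6.30 to 38.1) and 15.4% (4.36 to 34.9) of the selected barcodes against 58.5%, 8.82% and 7.82% of the others, so that at equal depth each interval held the share of the others. Barcodes outside the rule with 3 or more endothelial or myeloid markers, cells that should lack these genes, also had 3 or more neuronal markers in 51.4%, 10.3% and 4.55%, or 40.7%, 3.49% and 2.86% after thinning. A UMI of at least 1 of 6 forebrain or hypothalamus markers was present in 30, 3 and 3 selected barcodes. No such count is given for the other, shallower barcodes, so this does not show an excess. Over a list of 18 hypothalamus and ventral forebrain genes, the selected barcodes held 185, 30 and 3 UMIs. Scaled to equal depth (CPM), these sums were 211, 71.7 and 14.01, against 331, 76.9 and 64.6 in the others, so not higher at any stage. Because the label could not be told for most of the selected barcodes at E13.5, the group is called by its rule below.

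Pitx1, a homeobox gene of the oral ectoderm and of the pouch that the rule did not use, was found in a larger share of the selected than of the other barcodes before depth was made equal. A UMI of it was found in 26 of 71 (36.6%, 25.5 to 48.9), 10 of 33 (30.3%, 15.6 to 48.7) and 9 of 29 (31.0%, 15.3 to 50.8), in order of stage. The other barcodes had it in 2.29%, 3.27% and 4.40%. Because depth differed, each barcode was also thinned to 1500 UMIs. Pitx1 was then found in 12.5% (5.55 to 23.2), 7.41% (0.910 to 24.3) and 23.1% (8.97 to 43.6) of the selected barcodes against 1.57%, 2.16% and 1.83% of the others. At E14.5 the interval held the share of the others. Barcodes outside the rule with 3 or more epithelial markers, which include other oral ectoderm, had Pitx1 in 14.3%, 10.0% and 9.09% after thinning. At E13.5 and E14.5 the share in the selected barcodes was no higher than in these, and at every stage the interval of the selected barcodes held the share of these. Epcam, an adhesion molecule of epithelia, was found in 54.9%, 69.7% and 82.8% of the selected barcodes before thinning, and in 7.90%, 12.9% and 12.2% of the others. After thinning it was 21.9%, 40.7% and 57.7% against 6.69%, 10.8% and 10.6%, and 70.2%, 52.2% and 60.8% in the epithelial barcodes outside the rule.

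**Figure D1:**
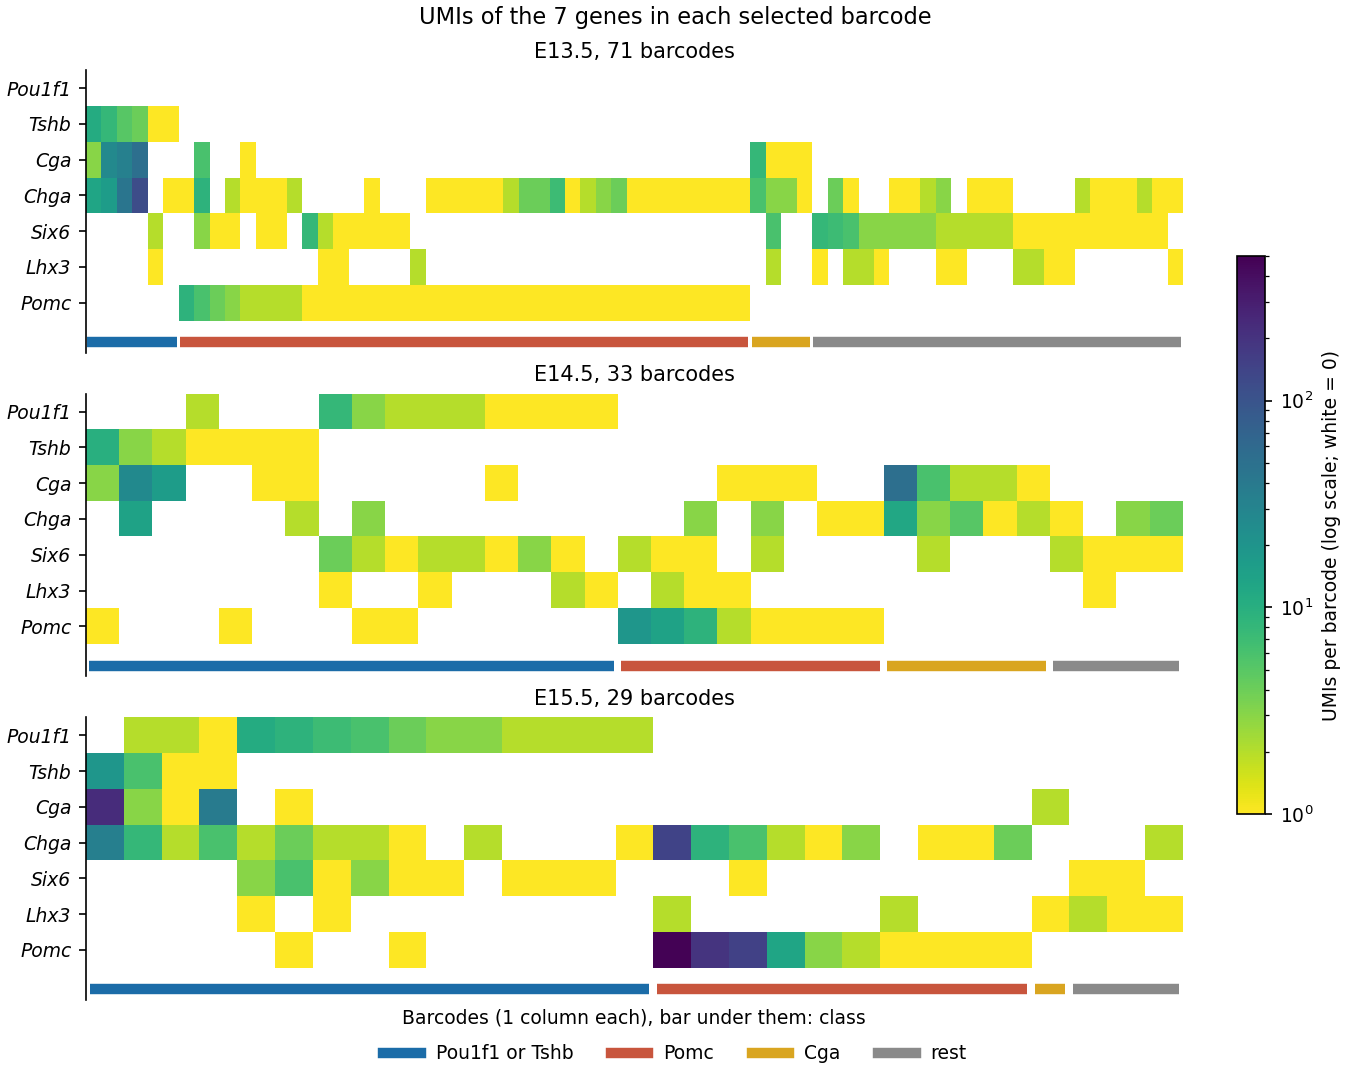
UMIs of the 7 genes of the rule in each selected barcode, with 1 column per barcode, 1 panel per stage and colour on a log scale (white is 0). The bar under each panel gives the class: a UMI of Pou1f1 or Tshb, otherwise of Pomc, otherwise of Cga, otherwise the rest. The Pou1f1 row is empty at E13.5, and the Pomc row at E13.5 is mostly single UMIs.

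The share of barcodes selected by stage was 1.92% (71 of 3692, 1.50 to 2.42), 1.86% (33 of 1775, 1.28 to 2.60) and 1.10% (29 of 2640, 0.737 to 1.57). The order of the stages changed with the choice of barcodes: without those with 3 or more neuronal markers or over 20000 UMIs, an alternative chosen after seeing the data, it was 0.332%, 1.25% and 0.687%, and with 3 or more of the 7 genes required 0.433%, 0.789% and 0.417%. Most lay at the edge of the rule: 55, 19 and 18 barcodes held exactly 2 of the 7 genes, and 16, 14 and 11 held 3 or more. Just outside it, 450, 104 and 105 barcodes held exactly 1. Those just outside had a median of 1 UMI of that gene at each stage, and those just inside a median of 3 UMIs over their genes. Some barcodes outside the rule held much hormone RNA of a single gene, up to 30 UMIs of Pomc and 11 of Cga at E15.5 and up to 7 of Pomc at E14.5. Of the barcodes with under 500 genes, 1 at each stage held 2 of the 7 genes. The one at E14.5 held 7 UMIs of Tshb and 1 of Chga.

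The makeup by hormone gene differed between the 3 libraries. The selected barcodes were put in classes in a fixed order: a UMI of Pou1f1 or Tshb, otherwise of Pomc, otherwise of Cga, otherwise the rest (Six6, Chga and Lhx3 only). The Pou1f1 or Tshb class held 6 of 71 in the earliest library (8.45%, 3.16 to 17.5), then 16 of 33 (48.5%, 30.8 to 66.5) and 15 of 29 (51.7%, 32.5 to 70.6). With 3 or more rule genes required it was 31.2% (11.02 to 58.7) in the earliest library and 81.8% in the last, and thinning to 1500 UMIs before the rule gave 21.1% (6.05 to 45.6) in the earliest. The Pomc class held 37 (52.1%, 39.9 to 64.1), 8 (24.2%, 11.1 to 42.3) and 10 (34.5%, 17.9 to 54.3). It was 25% at E13.5 without barcodes with 3 neuronal markers, and 15.8% at E15.5 with Chga left out of the rule. The Cga class held 4, 5 and 1, and the rest 24, 4 and 3. Barcodes with 3 or more neuronal markers made up 34 of 37 in the Pomc class at E13.5, and 4 of 6 in the Pou1f1 or Tshb class of that stage.

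**Figure D2:**
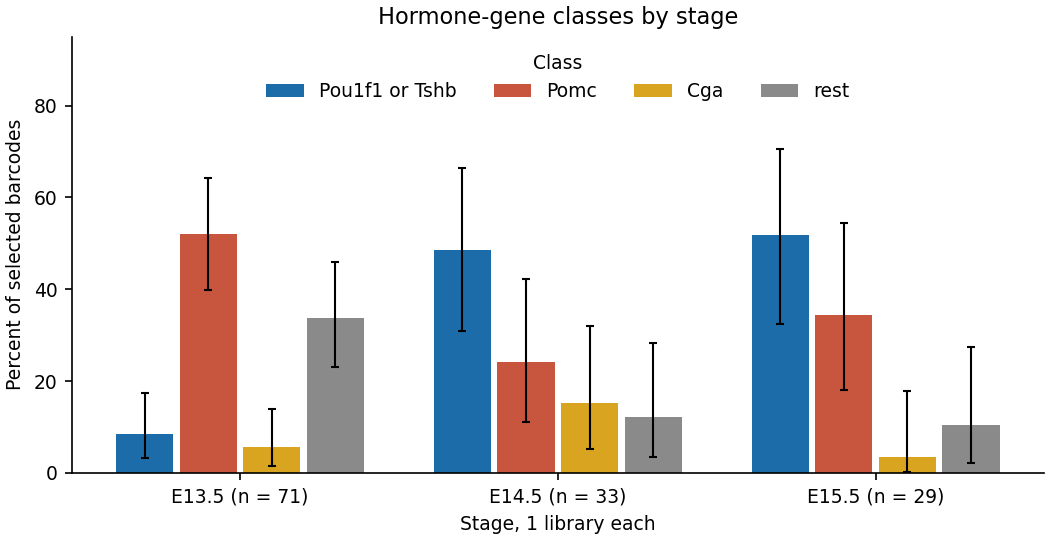
Percent of the selected barcodes in each class at each stage, with exact 95% binomial intervals as error bars (counting error only, 1 library per stage). The Pou1f1 or Tshb class is at 8.45%, 48.5% and 51.7% in the 3 libraries.

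Pomc reached its highest values per barcode at E15.5. At E13.5 37 selected barcodes held Pomc, 29 of them with a single UMI, and the highest values were 9, 6, 4 and 3. The barcode with 9 UMIs of Pomc held 9 neuronal markers and 20 UMIs of Stmn2, a microtubule regulator of neurons, with 0 of Pitx1 and Epcam. At E14.5 12 barcodes held Pomc, with 19, 14 and 9 UMIs in the highest 3, the last of these in a barcode of 28691 UMIs in total. At E15.5 12 barcodes held it, with 485, 194, 150 and 13 UMIs in the highest 4, which had 8449, 15940, 6402 and 1963 UMIs in total, and 3 or fewer in the other 8. All 4 also held Chga, at 143, 9, 6 and 2 UMIs, which follows in part from the rule, since a second rule gene was required. In that library 2 more barcodes held 10 or more UMIs of Pomc but no second rule gene, and were not selected. The barcode with 485 UMIs of Pomc held 2 UMIs of Lhx3, 1 of Pitx1 and 17 of Epcam.

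Pomc was also found in barcodes of other cell types. Outside the rule, Pomc was found in 2.54% of barcodes at E13.5, in 3.02% of barcodes with 3 or more neuronal markers (median 2354 UMIs) and in 1 of 37 barcodes with 3 or more endothelial or myeloid markers (2.70%, 0.0684 to 14.2, median 2764 UMIs), cells that should lack it. At E14.5 3 of 117 such endothelial or myeloid barcodes held 9 UMIs of Pomc, up to 6 in one, and 1 held 4 UMIs of Cga. At E15.5 0 of 154 held Pomc and 1 held a single UMI of Cga. Of the selected barcodes at E13.5, 23 held Pomc and Chga and no other gene of the rule. All 23 had 3 or more neuronal markers, with a median of 9 of 12, and 21 of them had exactly 1 UMI of Pomc. Chga itself was found in 11.6%, 25.4% and 22.9% of the neuronal-marker barcodes outside the rule. Joint detection of Pomc and Chga was therefore not read as a sign of the pituitary.

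Tshb, the beta subunit of thyroid-stimulating hormone, and Cga were found together in a few barcodes at each stage. At E13.5 there were 4 such barcodes: Cga stood at 52, 33, 27 and 3 UMIs in them, Tshb at 4, 5, 8 and 11 in the same order, and Chga at 117, 45, 16 and 13. At E14.5 there were 5, with 26, 16, 3, 1 and 1 UMIs of Cga and 3, 2, 10, 1 and 1 of Tshb. At E15.5 there were 4, with 225, 38, 3 and 1 UMIs of Cga and 19, 1, 6 and 1 of Tshb. The highest of these, with 225, was a barcode of 29072 UMIs that also carried 10 of 10 mesenchyme markers and 101 UMIs of Col1a1, a bone and skin collagen. A further barcode at E14.5 held 52 UMIs of Cga and 12 of Chga without Tshb. Among the other barcodes with 500 genes or more, Tshb was found in 1, 1 and 2, each with a single UMI. Over whole libraries, barcodes with fewer genes included, the selected barcodes held 96.8% of 31, 70.4% of 27 and 27 of 30 of all Tshb UMIs of the libraries.

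Pou1f1 was at 0 in the whole E13.5 library and present in the later ones. At E13.5, 0 of 71 selected barcodes held a UMI, which allows a share of up to 4.23%, and 0 of 3621 others, which allows up to 0.0829%. These limits are for barcodes with a UMI at this depth, not for cells that express the gene, since barcodes with Pou1f1 held a median of only 2 and 2.5 UMIs of it at the later stages. At E14.5 10 of 33 selected barcodes held it (30.3%, 15.6 to 48.7), with 23 UMIs in all and 8 in the highest. At E15.5 14 of 29 held it (48.3%, 29.4 to 67.5), with 56 UMIs and 11, 9, 7 and 6 in the highest 4. Endothelial or myeloid barcodes outside the rule had 0 of 37, 0 of 117 and 0 of 154 with Pou1f1. Selected barcodes could not enter this set. Among them, a barcode of E14.5 with 9 myeloid markers and another with 5 endothelial markers each held 2 UMIs of Pou1f1. Pou1f1 and Tshb were found together in 0, 1 and 3 selected barcodes in order of stage. That of E14.5 held 2 UMIs of Pou1f1, 1 of Tshb and 0 of Cga. Of the barcodes with both Tshb and Cga, 0 of 4, 0 of 5 and 3 of 4 held Pou1f1, at 1, 2 and 2 UMIs. At these low counts a missing UMI does not show that the gene was off. Pou1f1 was seen together with Six6 in 8 barcodes at E14.5 and 9 at E15.5, and together with Pomc in 2 and 2.

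**Figure D3:**
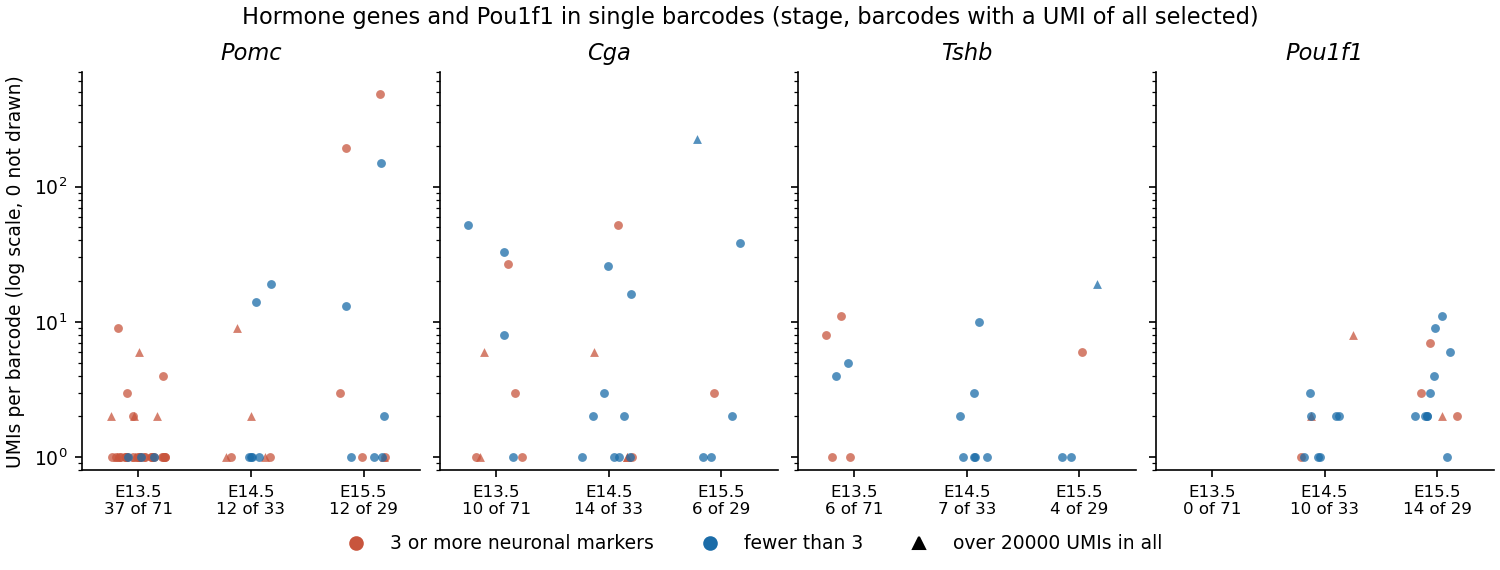
UMIs of Pomc, Cga, Tshb and Pou1f1 in each selected barcode that holds the gene, by stage, on a log scale. Red points have 3 or more neuronal markers, blue points fewer, and triangles mark barcodes over 20000 UMIs. Pomc reaches 9, 19 and 485 UMIs at the 3 stages, and Pou1f1 has 0, 10 and 14 barcodes.

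Six6 and Lhx3, the pouch homeobox genes of the rule, were found together in 14 of 71, 6 of 33 and 4 of 29 selected barcodes. Six6 was present in 37 of 71, 17 of 33 and 12 of 29 selected barcodes, with 8, 4 and 6 UMIs at most. Lhx3 was present in 16, 8 and 8, with 2 UMIs at most at each stage. Among the other barcodes with 500 genes or more, Lhx3 was found in 4, 4 and 2. Six6 with Chga alone made up 13 selected barcodes at E13.5, of which 12 had 3 or more neuronal markers. Six6 with Lhx3 alone made up 8, with a median of 2.5 neuronal markers.

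Hormones of the latest pituitary lineages were near or at 0 in the selected barcodes. Gh (growth hormone), Lhb and Fshb (the gonadotropin beta subunits) had 0 UMIs in the selected barcodes at each stage, and Prl (prolactin) had 1, at E14.5. The other barcodes held 0, 17 and 2 UMIs of these 4 genes, so that most of this RNA lay outside the rule. A count of 0 allows up to 3.43, 7.17 and 14.01 CPM, the usual scaling of a gene's share of all UMIs summed, at the 3 stages. Of 18 genes for receptors and signals of hormone cells, Dlk1 had most UMIs at E14.5 and E15.5, with 170 and 108. Dlk1, a membrane protein of endocrine and growth-regulating tissues, was found in 30, 29 and 23 selected barcodes, which were deeper than the others. Of the genes of this list with 50 CPM or more in either set, 0 of 2 at E13.5 and 0 of 1 at E14.5 were at least 2-fold higher than in the other barcodes. At E15.5 3 of 3 were, namely Dlk1, Dio2 and Pcsk1n. Dio2 and Pcsk1n reached that minimum only in the selected barcodes.

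Neuronal RNA was common in the E13.5 library, inside and outside the rule. In the selected barcodes of E13.5 the median number of neuronal markers was 9, against 2 and 2 later. Stmn2 stood at 873, 100 and 40 UMIs in 54, 8 and 7 selected barcodes, or 997, 239 and 187 CPM against 691, 164 and 153 in the others. At E13.5 20 of 37 endothelial or myeloid barcodes held it (54.1%, 36.9 to 70.5), at 375 CPM, and after thinning 57.8% of the selected barcodes, 45.6% of the others and 40.7% of these. Isl1, a LIM homeobox gene of early pituitary cells and also of motor and sensory neurons, stood at 123, 8 and 2 UMIs. Its CPM at E13.5 was 140 in the selected barcodes, 126 in the others and 158 in neuronal-marker barcodes outside the rule. The part of neuronal cells in these values was not tested. Of the selected barcodes at E13.5, 12 had fewer than 3 neuronal markers, and 0 of these exceeded 20000 UMIs. At E14.5 22 and at E15.5 18 met both limits.

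**Figure D4:**
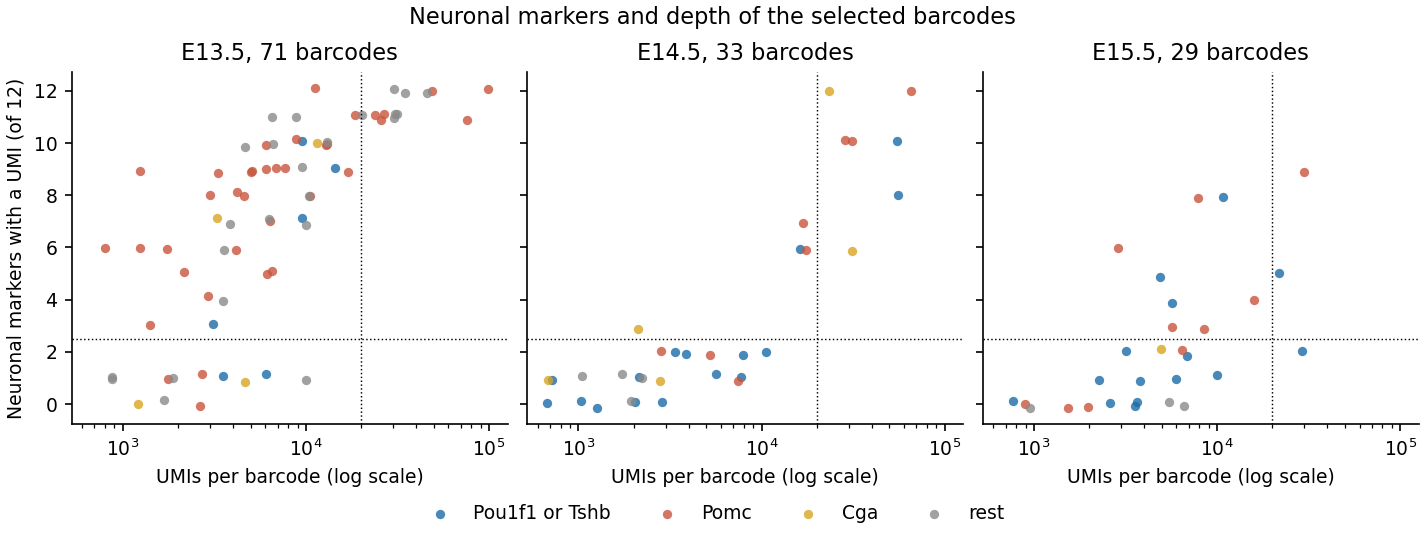
Number of 12 neuronal markers with a UMI against total UMIs (log scale) in each selected barcode, coloured by class. Dotted lines mark 3 markers and 20000 UMIs. At E13.5 59 of 71 barcodes lie above the first line, and at the later stages 11 of 33 and 10 of 29.

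All genes were then compared between the selected and the other barcodes of the same library, from summed UMIs, with a gene called at a 2-fold or larger ratio after 10 CPM had been added to both. Genes with 50 CPM or more in either group entered, and the 7 rule genes did not. Called higher were 12 of 4307 genes in the E13.5 library (0.279%), 160 of 4800 in the next (3.33%) and 356 of 4983 in the last (7.14%), and called lower 0.0464%, 1.21% and 8.71%. The counts called higher depended on the barcodes summed: with each barcode weighted equally they were 82, 671 and 669, without barcodes over 20000 UMIs 52 and 478 at the first stages, and after thinning before the rule 334 and 1248, so that no order of stages is drawn from them. All 9 tested mesenchyme markers were among the lower genes of E15.5, and over all 10 genes of that list the medians were -0.15, -0.46 and -1.68 (log2) in order of stage. Of the genes of secretory granules and prohormone processing, 2 of 11, 7 of 9 and 9 of 12 tested were called higher, but 2, 5 and 8 of these had under 50 CPM in the other barcodes, entered only through the selected ones, and for that reason had to stand higher. The counts are therefore a description. Over all 19 genes of the list, with no minimum, the medians were 0.14, 0.90 and 1.85 (log2). Since Chga is itself a granule gene of the rule, this list is near to what the rule chose. Of the pituitary transcription factors, 1 of 11, 0 of 11 and 1 of 9 tested were called higher, which was Pitx1 both times, and it too entered only through the selected barcodes. At E14.5 Pitx1 did not reach the minimum. Called lower were 0, 0 and 2, the latter Hes1 and Nr4a1, and the medians over all 27 genes were -0.10, 0.23 and 0.26.

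Scg2 and Chgb are granule proteins of the same family as Chga. Both reached 50 CPM only in the selected barcodes, never in the others, and Chgb at E14.5 in neither, so that their ratios are a description. Scg2 had 162, 46 and 93 UMIs in 23, 15 and 19 selected barcodes, and log2 ratios of 2.47, 2.35 and 4.45 to the others. At E13.5 119 of the 162 lay in the 4 barcodes with Tshb and Cga, and without these, an alternative chosen after seeing the data, the ratios were 0.78, 2.19 and 4.51. Chgb had 50, 18 and 39 UMIs and ratios of 1.02, 1.93 and 3.88. Nnat, an imprinted gene of neural and endocrine cells, had the largest mean ratio among genes outside the rule with 50 CPM or more in the selected barcodes of every library, at 0.80, 3.34 and 5.72, with 2295, 703 and 1323 UMIs in 68, 29 and 27 selected barcodes. Epcam stood at 1.02, 0.42 and 2.32, and Irs4, an insulin receptor substrate, at 1.30, 1.60 and 2.00 with only 17, 11 and 7 UMIs, under the 50 CPM minimum at each stage. At E15.5 the processing genes Scg5 (2.71), Scg3 (2.93) and Resp18 (2.70) also stood higher, but they too reached 50 CPM only in the selected barcodes, so that their ratios are a description. The neuronal list moved with these genes: 0 of 10, 4 of 10 and 3 of 8 tested neuronal markers were called higher, of which 2 and 2 at the later stages entered only through the selected barcodes, with summed levels of 4389, 1708 and 1271 CPM against 3930, 844 and 778 in the other barcodes.

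The profile of the barcodes with fewer than 3 neuronal markers and at most 20000 UMIs was compared in the same way. Their low neuronal genes follow from that choice and are not a result. They were 12, 22 and 18 barcodes with 37753, 75813 and 71397 UMIs. Called higher were 21.3%, 14.45% and 14.6% of the genes tested. Pituitary transcription factors were called higher in 6 of 14, 8 of 13 and 1 of 9 tested and lower in 2, 1 and 4, where 18.1%, 11.6% and 17.3% of all genes were lower. Sox9 was lower at each stage, Foxp2 at E13.5, and Eya4, Hes1 and Nr4a1 at E15.5. In these few barcodes 1 UMI is 26.5 CPM at E13.5, so that 2 UMIs reach the minimum, and 4 of the 6, 7 of the 8 and the 1 higher factor entered only through them. Over all 27 genes the medians were -0.09, 0.44 and 0. The 6 higher ones at E13.5 were Etv1, Eya4, Gata2, Hesx1, Pitx1 and Six3. Pitx1 rested on 9 UMIs (log2 ratio 3.49), Gata2 on 4 (2.96) and Hesx1, a repressor of the early pouch, on 2 (2.57). At E14.5 Pitx1, Insm1, Isl1, Sox2 and 4 others were called, and at E15.5 Six3 (2.68, 7 UMIs). Of the granule genes, 5 of 14, 6 of 9 and 8 of 11 were called higher, 5, 5 and 7 of them entering only through these barcodes, and 6, 0 and 0 lower, with medians of -0.56, 0.74 and 1.66 over all 19. The lower ones at E13.5 were Cadps, Cpe, Pam, Pcsk2, Ptprn2 and Snap25. Of the epithelial genes, 4 of 5, 5 of 6 and 1 of 5 were called higher, 3, 3 and 0 of them entering that way, and 0, 0 and 1 (Cldn7) lower, with medians of 1.06, 0.60 and 0.41 over all 12. Scg2 stood at log2 ratios of 5.67, 3.49 and 4.75 in these barcodes, Nnat at 2.78, 4.96 and 6.74, and Epcam at 3.59, 1.45 and 2.75. Stratified oral epithelium markers had 0, 2 and 0 UMIs here, over all 11 genes of that list, and 41.6, 279 and 627 CPM in the other barcodes. At E13.5, where the others were that low and 1 UMI here is 26.5 CPM, the 0 says little.

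Other cell types left traces in the same barcodes. Mesenchyme markers summed to 238, 2770 and 2451 CPM in the barcodes without 3 neuronal markers and of at most 20000 UMIs, against 792, 7614 and 8480 CPM in the others. Globin and other erythroid RNA summed to 30654 CPM in them at E14.5 against 8960, and to 1775 and 2983 CPM at E13.5 and E15.5 against 12188 and 9156. Of their Hba-a1 at E14.5, 672 of 729 UMIs lay in a single Tshb and Cga barcode. Endothelial markers had 1, 1 and 0 UMIs in these barcodes. Myeloid markers had 7, 41 and 1, or 185, 541 and 14.01 CPM against 71.1, 284 and 331 in the others. Fcer1g, a gene of myeloid cells, was called higher at E13.5 and, with Laptm5, at E14.5, and Fcer1g and Tyrobp were called lower at E15.5. Fcer1g at E13.5 and Laptm5 entered only through these barcodes. A Pou1f1 barcode of E14.5, with 7938 UMIs and 2 of Pou1f1, carried 9 of 9 myeloid markers. The G2 and M phase list, with genes such as Mki67 and Top2a, had 0 of 8, 0 of 10 and 0 of 7 tested genes called higher and 7, 6 and 6 called lower in them. The part of free or shared RNA of other cells in these values was not tested.

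Several differences between stages changed direction with the choice of barcodes summed. Of 1172 genes with 200 CPM or more at either stage, 11.5% were called higher in the E15.5 library than in that of E13.5 and 10.8% lower, and with the neuronal-marker and deep barcodes left out it was 18.9% and 19.7% of 1283. Of the 8 tested neuronal markers, 7 were called lower at E15.5, among them Stmn2 (log2 ratio -2.36) and Tubb3 (-3.21), and 0 of 1 tested once the neuronal-marker barcodes were left out. Cga stood at 2.97 in all selected barcodes and at -2.06 in the smaller set, Tshb at 1.62 and -2.71, Scg2 at 1.19 and -1.70, and Chga at 1.72 and -3.41. No direction by stage is given for these 4 genes. Embryonic globin Hbb-y stood at -8.33 and -4.91, and Isl1 at -2.96 and -3.37, the second from 9 UMIs at E13.5 and 1 at E15.5. Each of these stage values compares 1 library with 1 library.

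Between the Pou1f1 or Tshb class and the Pomc class, 7.16%, 5.35% and 12.7% of genes were called higher in the first and 7.88%, 4.15% and 14.1% in the second, in order of stage. Nrxn3, a synaptic adhesion gene, stood at log2 ratios of -1.15, 4.22 and 2.86, so that its direction turned between libraries. Kcnmb2, a potassium channel subunit, stood at 2.06, 1.62 and 0.65, on the side of the Pou1f1 or Tshb class each time. On the side of the Pomc class each time were Syt1, a calcium sensor of vesicle release, at -2.65, -1.50 and -2.43, and the neuronal marker Stmn2 at -2.30, -2.14 and -1.47. Barcodes with 3 or more neuronal markers made up 4 of 6, 3 of 16 and 4 of 15 of the Pou1f1 or Tshb class and 34 of 37, 5 of 8 and 6 of 10 of the Pomc class, and their part in these ratios was not tested.

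To describe combinations of rule genes apart, 4 groups of barcodes with at most 20000 UMIs were formed, after their values had been seen: Tshb with Cga (4, 5 and 3 barcodes at the 3 stages), Pou1f1 without Tshb (0, 7 and 10), Pomc at 9 UMIs or more (1, 2 and 4) and Six6 with Lhx3 without Pou1f1 (14, 2 and 2). At E14.5 1 barcode belonged to both of the last groups. In no group were 39, 11 and 7 barcodes. Values below are UMIs per barcode in descending order and within 1 library.

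The Tshb and Cga barcodes at E13.5 held several granule genes and transcription factors, of which Scg2, Isl1, Resp18 and Rab3b are also known from neurons. Of these 4 barcodes, 2 had 3 or more neuronal markers, and 1 of them carried 10 of 12, 7 UMIs of Stmn2 and 9487 of the 22142 UMIs of the group. Another carried 5 of 10 mesenchyme markers. The part of other cells was not tested. All 4 held Scg2, at 36, 34, 30 and 19 UMIs, and all 4 held Isl1, at 4, 3, 2 and 1. Resp18, a neuroendocrine granule protein, stood at 13, 4, 3 and 1, and Rab3b, a small GTPase of regulated secretion, at 4, 2, 1 and 1. Hlf, a PAR bZIP factor that binds the same sites as the thyrotroph factor Tef, stood at 17, 9, 4 and 4. Gata2, which with Pou1f1 drives Tshb, was found in 2 of the 4 at E13.5 and in 2 of 5 at E14.5, and in 0 barcodes of the other groups at any stage. At E14.5 1 of these 2 carried 10 of 10 mesenchyme markers and 30 UMIs of Col1a1, and held 10564 of the 16502 UMIs of its group. Pcsk1, a prohormone convertase, was found in 2 of the 4, at 3 and 2 UMIs. In the 14 Six6 and Lhx3 barcodes of the same library, by comparison, Scg2 stood at 12, 2, 1, 1, 1, 1 and 0 in the other 8, Isl1 at 1 in 3 barcodes, Resp18 at 1 in 1, and Hlf at 1 in 1. At E14.5 and E15.5 the Tshb and Cga barcodes were shallower, with medians of 2035 and 2258 UMIs against 4767, and Scg2 stood at 3, 3, 1, 0 and 0 and at 6, 1 and 1. Dio2, the deiodinase that activates thyroid hormone, was found in 2 of 5 at E14.5 and in 2 of 3 at E15.5, at 6 and 1.

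The Six6 and Lhx3 barcodes without Pou1f1 at E13.5 held other genes of the pouch and of epithelia. Pitx1 was found in 9 of 14 and Epcam in 11 of 14, at up to 16 UMIs. Hesx1 was found in 3 of 14, each with 1 UMI, and in 0 barcodes of the other groups. Etv1, an ETS factor, was found in 8 of 14 and Irs4 in 9 of 14. Hes1, the Notch target that holds pouch cells undifferentiated, was found in 7 of 14, at 17, 9, 5, 3, 1, 1 and 1 UMIs, and in 0 of 4 Tshb and Cga barcodes of that library. Dlk1 was found in 9 of 14 and in 0 of those 4. Neuronal markers numbered 3 or more in 7 of the 14, and Nrxn3, a synaptic adhesion gene with 132 UMIs in 7 barcodes, was carried mostly by 3 barcodes at 51, 39 and 31. Globin RNA was also higher than in the Tshb and Cga barcodes. Hba-a1 stood at 440 UMIs in 13 of 14 against 10 in 4 of 4 (5606 against 452 CPM), Hba-a2 at 252 against 6 and Hba-x at 34 against 0. The part of RNA of other cells in these values was not tested.

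The Pou1f1 barcodes without Tshb were set beside the Pomc barcodes of the same library at E15.5, with 55190 and 32754 UMIs in all and the genes picked for their difference. Of the 10 Pou1f1 barcodes, 2 had 3 or more neuronal markers, 1 of them 8 with 11 UMIs of Stmn2, and a further one carried 8 of 10 mesenchyme markers. Of the 7 at E14.5, 1 had 3 or more neuronal markers, 1 carried 8 mesenchyme markers with 32 UMIs of Col1a1, and 1 carried 9 of 9 myeloid markers. Their part in the values was not tested. Nrg1, a growth factor of the EGF family, stood at 130, 62, 37, 36, 24, 17, 11, 5, 4 and 0 in the 10 Pou1f1 barcodes and at 28, 9, 7 and 0 in the 4 Pomc barcodes. Kcnh8, a potassium channel, stood at 37 to 6 in 9 of the 10 and at 7, 6, 2 and 0. Angpt1, an angiopoietin, was found in 9 of 10, at 19 UMIs and below, and at 1 UMI in 1 of 4. Erc2, an active-zone protein, was found in 9 of 10, led by 48 and 12, and at 1 UMI in 1 of 4. Nrxn3 was found in 8 of 10 and 0 of 4. At E14.5 Kcnh8 was found in 7 of 7 Pou1f1 barcodes, at 7, 6, 4, 3, 2, 1 and 1, and in 0 of 5 Tshb and Cga barcodes, whose summed depth was 16502 UMIs against 38483. Neurod4, a bHLH factor of the Pou1f1 lineage, was found in 2 of 7 and 3 of 10 Pou1f1 barcodes, each with 1 UMI, and in 0 barcodes of the other groups. Nnat stood between 206 and 16 UMIs in the 10 Pou1f1 barcodes at E15.5, and between 97 and 4 in the 4 Pomc barcodes.

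The enzymes that cut the Pomc precursor were each found in 3 of the 4 Pomc barcodes at E15.5. Pcsk1 stood at 5, 2, 2 and 0 UMIs and Pcsk2, the other convertase, at 5, 4, 2 and 0. In the 10 Pou1f1 barcodes Pcsk1 was at 0 in all and Pcsk2 at 1 in a single one. Cpe, the carboxypeptidase that trims the products, stood at 6, 6, 4 and 0, Pam, which amidates peptides, at 23, 4, 4 and 0, and Ptprn2, a granule membrane protein, at 14, 12, 5 and 0. Ptprn was found in 3 of 4 and in 0 of 10 Pou1f1 barcodes. Etv1 stood at 1, 1, 1 and 0, and Tbx19 (Tpit), the factor that drives Pomc in the pituitary, at 1 in 1 of 4 and at 1 in 1 of 10 Pou1f1 barcodes. Pcsk2 and Syt1 are also neuronal genes, and 2 of the 4 had 3 or more neuronal markers, with 1 UMI of Stmn2 in the 4 together. The barcode with 194 UMIs of Pomc carried 8 of 10 mesenchyme and 5 of 8 endothelial markers and 26 UMIs of Col1a1, and held 15940 of the 32754 UMIs of the group. The part of other cells in these values was not tested. Pitx1 was found in 1 of the 4, whereas Epcam was found in all 4, at 17, 5, 1 and 1.

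**Figure D5:**
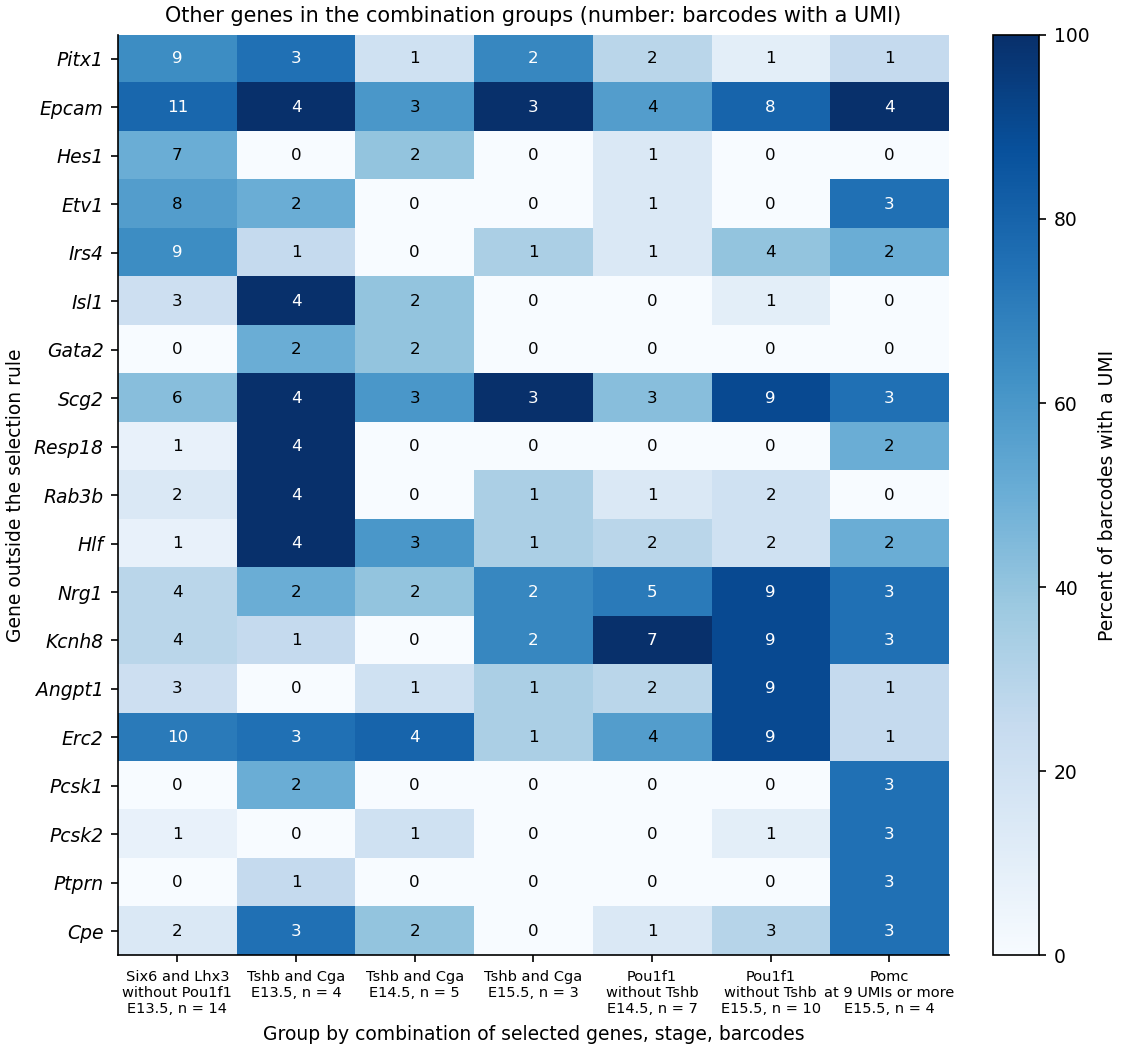
Percent of barcodes with a UMI (colour) and number of barcodes (digits) for 19 genes outside the rule in the combination groups of at most 20000 UMIs, with the number of barcodes under each column. Genes and groups were picked after their values were seen. Isl1, Resp18, Rab3b and Hlf are found in 4 of 4 Tshb and Cga barcodes at E13.5, and Pcsk1 and Pcsk2 in 3 of 4 Pomc barcodes at E15.5.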

How the data were processed

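Single-cell RNA libraries of 3 stages, 1 per stage, were read as UMI counts per gene and barcode. The deposited counts came from Cell Ranger 6.1.2, per the file headers, and the build was mm10, per the submitters' processing notes. Python 3.11.15 with numpy 2.4.6, scipy 1.17.1, pandas 2.3.3 and matplotlib 3.10.9 was used.

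Barcodes with 500 detected genes were kept, and doublets were not called. UMIs were summed per group and scaled to CPM. Ratios had 10 CPM added to both sides and were called at 2-fold. Genes entered at 50 CPM in either group, or 200 CPM between stages. Intervals are exact 95% binomial and cover counting error only, and a count of 0 was given a limit of 3 counts. Scripts were tested on simulated data. Of the granule list 19 genes were found. Some genes of the transcription factor list are not reported here, and its counts leave them out. The members and lists were chosen with earlier results of these data known. Named genes were listed hormone, factor, receptor and granule genes with 5 or more UMIs in the selected barcodes, and the 12 with the largest mean ratio. Combination groups, and the genes named in them, were picked after their values were seen. Alternatives changed the rule, the depth, the barcodes left out, the CPM minimum, the CPM added and the weight of barcodes.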

Additional observations from a re-analysis of the deposited data

Results flagged for a closer look

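Summed endothelial markers stood at a log2 ratio of 1.05 in the selected against the other barcodes at E13.5 and at -1.1 at E15.5, in opposite directions. Without barcodes with 3 or more neuronal markers or over 20000 UMIs, the E13.5 value was -0.02, from 1 UMI, and E15.5 held 0 UMIs of these markers. Summed erythroid markers stood at 1.18 at E14.5 and at -1.44 at E15.5. Of these genes Hba-a1 at E14.5 turned to -0.69 with 3 or more rule genes required and to -2.13 after thinning to 1500 UMIs, and 672 of its 729 UMIs in the barcodes without 3 neuronal markers and of at most 20000 UMIs lay in a single one. With 1 library per stage, neither difference was tested.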

How the results depend on the processing

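In the values that answer a comparison, 115 alternatives stayed within the counting interval or within 1.5 times the reported count, and 60 did not. Of single genes, 416 stayed, 381 moved and 17 changed sign. The cause was not tested. Values are in the order of the stages. With 3 or more of the 7 genes required, the share selected was 0.433%, 0.789% and 0.417%, the Pou1f1 or Tshb class 31.2% at E13.5 and 81.8% at E15.5, the rest class 12.5%, 0% and 0%, and the Cga class 0% at E15.5. Then 615 genes were higher at E15.5 and 202 lower at E15.5 than at E13.5, with Hba-a1 at -0.69 (E14.5) and Cntn1 at -1.03 (E15.5). Without Chga in the rule the share was 0.813% at E13.5 and 0.720% at E15.5, the E14.5 Pou1f1 or Tshb class 66.7% and Cga class 4.17%, the E15.5 Pomc class 15.8%, and 23 and 551 genes were higher at E13.5 and E15.5. At 1000 genes the share was 2.80% at E13.5 and 1.59% at E15.5. Thinned to 1500 UMIs first, it was 0.809%, 0.823% and 0.722%, the E13.5 Pou1f1 or Tshb and rest classes 21.1% each, the E15.5 Cga and rest classes 0% each, 334 and 1248 genes were higher at E13.5 and E14.5, and 214 lower between stages. Hba-a1 was then at -2.13, Cntn1 at -0.18 and, between E15.5 and E13.5, Tshb at -0.14 and Scg2 at -1.07. Without barcodes with a forebrain marker the E13.5 share was 1.12%, with 87 genes higher and Scg2 at -0.31 between stages. Without 3 neuronal markers the shares were 0.330%, 1.25% and 0.722%, the E13.5 Pomc and Cga classes 25% and 16.7%, with 1228 and 798 genes higher at E13.5 and E14.5 and 225 lower between stages, where Tshb was at -0.18, Scg2 at -2.02, Nnat at -0.20 and Epcam at -0.42. Without barcodes over 20000 UMIs, 52 and 478 genes were higher at E13.5 and E14.5, with Cga at -0.077 and Tshb at -0.44 between stages. With both left out the shares were 0.332%, 1.25% and 0.687%, the E13.5 Pomc and Cga classes 25% and 16.7%, 1225, 788 and 765 genes higher, 243 higher and 253 lower between stages, with Cga at -2.06, Tshb at -2.71, Scg2 at -1.70 and Epcam at -0.26. With no CPM minimum, 24, 313 and 694 genes were higher, and 1271 higher and 961 lower between stages. With barcodes weighted equally, 82, 671 and 669 were higher. With 1 CPM added, no value that answers a comparison moved. The reported counts were 12, 160 and 356 higher, and 135 higher and 127 lower between stages. No paired analysis was possible because each stage has 1 library.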
